A study of Danio rerio with 8 samples.

Results

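Phosphatases that remove phosphate from tyrosine, from threonine and tyrosine together, or from inositol lipids were examined in red-fluorescent cells sorted from injured zebrafish hearts. They were chosen by the prefix of the gene symbol, in any case, which took 52 of the 10479 identifiers in the expression table. Among them were 13 non-receptor tyrosine phosphatases (ptpn), 11 receptor-type tyrosine phosphatases (ptpr), 6 dual-specificity phosphatases (dusp), 5 ptp4a genes, 7 inositol polyphosphate phosphatases (inpp) and 8 myotubularins (mtmr). Symbols are written as the table writes them, in upper or lower case, and where a symbol belongs to more than 1 identifier the identifier follows it.

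Every fish carried 2 transgenes, Tg(wt1b:eGFP; mpeg1:mCherry), so that cells using the promoter of wt1b, a zinc finger transcription factor gene of the epicardium, were green and cells using the promoter of the macrophage gene mpeg1 were red. Hearts of adults aged 6 to 9 months were injured by freezing (cryoinjury) and cells were sorted 4 days later. Double positive cells (GFP and mCherry) and single positive cells (mCherry without GFP) gave 4 libraries each, numbered 1, 2, 4 and 5, each from a pool of 5 to 7 hearts. Libraries 1 and 2 of both populations formed library batch 1, and libraries 4 and 5 formed batch 2. The populations are defined by what the 2 reporter promoters drive, and a pool gives an average over its hearts. Because the RNA came from many cells at a time, fewer cells of a type and less RNA per cell cannot be told apart.

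Protein tyrosine phosphatases reverse the work of tyrosine kinases such as those of the Src and JAK families, and some of them, which remove an inhibitory phosphate, also switch kinases on. Dual-specificity phosphatases of the MAP kinase type turn off ERK, JNK or p38 by clearing both phosphates of the activation loop, and several of their genes are themselves induced by the pathway they shut down. The inositol polyphosphate phosphatases and the myotubularins instead act on phosphoinositides, the membrane lipids that PI3 kinases phosphorylate, and so limit signals through AKT or set the identity of endosomes. In macrophages of mammals these enzymes set how strongly receptors for growth factors, cytokines and antibody-coated particles signal.

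The values were normalised counts with library totals between 868929 and 1021901 in double positive cells and between 803220 and 951137 in single positive cells. Library double positive 1 stood apart, with 42.3% of all genes under 1, against 10.7% to 19.7% in the other 7 libraries. Of the 52 phosphatase genes, 20 were under 1 in that library, against 3 to 10 in each of the other libraries. The sort was visible in wt1b, which had 41.4, 13.6, 63.1 and 22.7 normalised counts in the double positive libraries and 0.469, 0.203, 0.122 and 0.122 in the single positive libraries. Among the identifiers of the symbol MPEG1, ENSDARG00000043093 averaged 393 ± 171 in double positive and 30.3 ± 39.7 in single positive libraries (SD, n = 4 each), and ENSDARG00000055290 averaged 352 ± 126 in double positive and 452 ± 103 in single positive libraries. Of 22 identifiers on a macrophage marker list, 14 were higher and 1 was lower in double positive cells, and their sum was 4533 to 8744 in double positive against 1470 to 3228 in single positive libraries. Of 9 identifiers on a lymphocyte and natural killer list, 6 were lower and none higher, with sums of 196 to 281 in double positive against 758 to 1761 in single positive libraries. A fibroblast and epicardial list of 12 identifiers had 4 higher, wt1b among them, and 1 lower. Its sums overlapped, at 2896 to 5386 in double positive and 1194 to 3857 in single positive libraries. No listed marker with an identifier in the data was under 1 in all 8 libraries. Many listed symbols had no identifier and could not be looked at. The 25 symbols of the lymphocyte and natural killer list gave 9 identifiers, without cd3e, cd4, cd8a or lck. The 12 symbols of a neutrophil list gave 5, without mpx or lyz.

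Few phosphatase genes separated the populations. The identifier ENSDARG00000015891 of PTPRE and inpp5l were higher in double positive cells, ptpn18 was lower, and the other 49 did not pass the threshold of a limma adjusted p under 0.05 across all 10127 genes tested. The share past the threshold, 3 of 52 or 5.77%, lay near that of all genes tested (6.69%). By direction, 2 were higher, against a background of 3.88%, and 1 was lower, against 2.81%. Each family described below held 0 or 1 call among 5 to 13 genes, too few beside these shares to read as a trait of the family. The median log2 fold change, double positive over single positive on the log2(value + 1) scale, was 0.09 over the phosphatases and -0.16 over all genes. The median of all genes was 0.12 when each library was centred on its median and -0.04 after quantile normalisation, so changes smaller than this range take their sign from the scaling. With median centring 542 genes of the whole table were higher and 220 lower, against 393 and 285 in the scaling used here. The median value was 7.21 in double positive 1 and 12.6 to 20.4 in the other libraries. Centring on the median therefore raises double positive 1 the most, and the part of that library in these counts was not tested. Values of the 2 populations did not overlap for 8 of the 52 genes, 15.4%, against 14.1% of all genes tested. Those 8 were PTPRE ENSDARG00000015891, inpp5l, PTPN4 and MTMR14, with all double positive libraries above, and ptpn18, DUSP5, ptprdb and INPP4A ENSDARG00000063352, with all double positive libraries below.

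**Figure D1:**
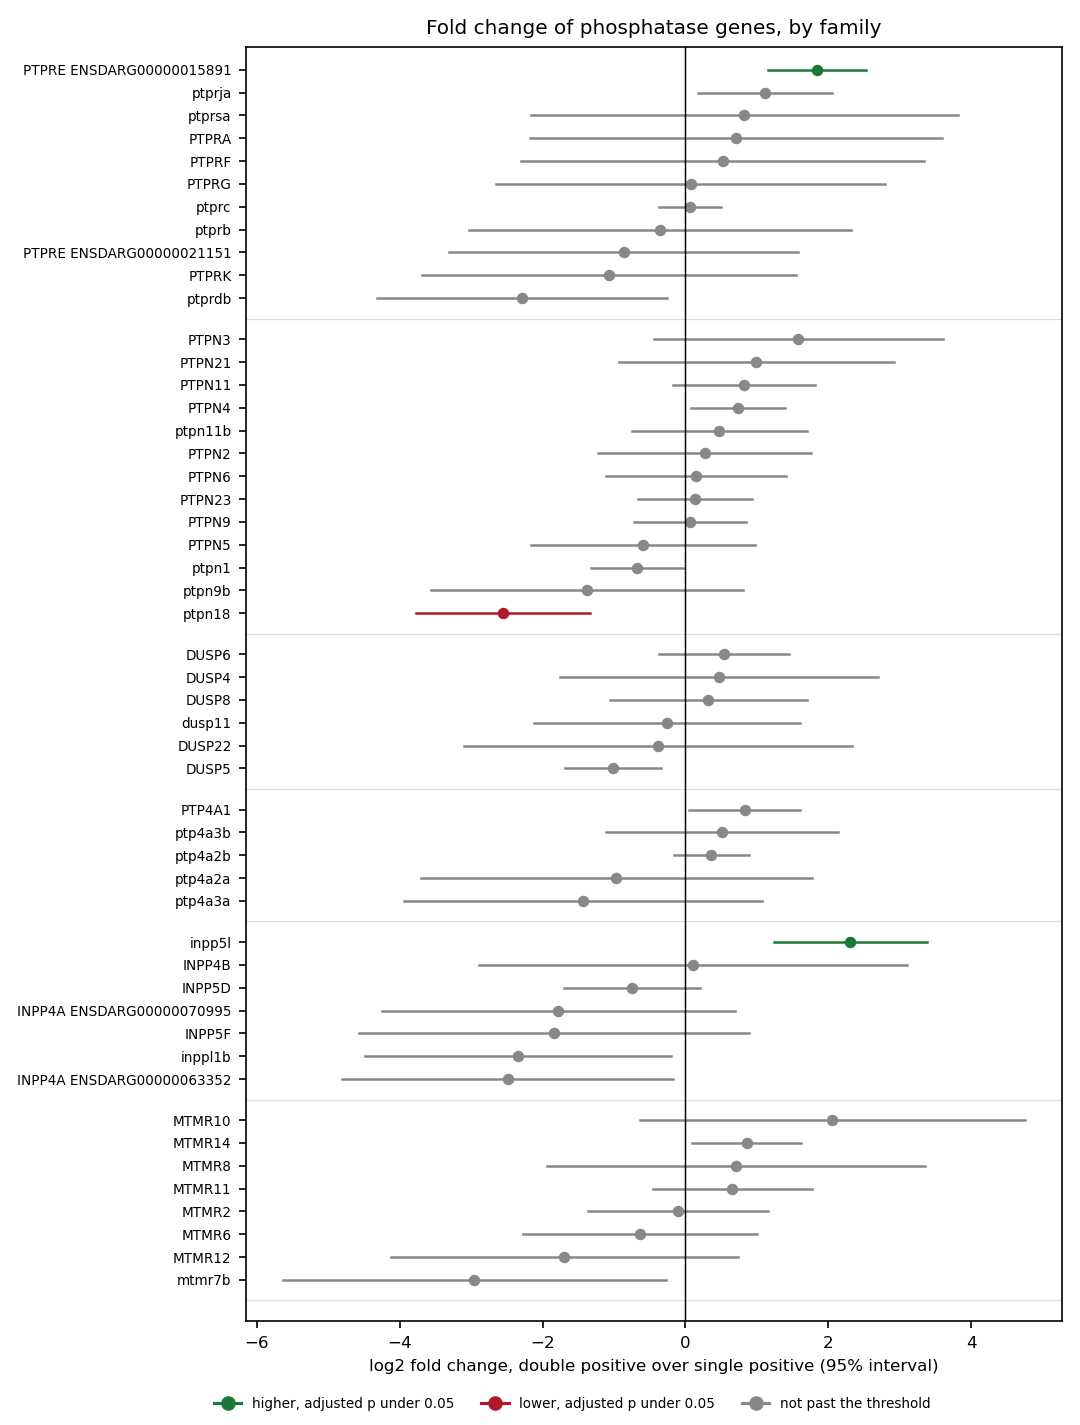
Log2 fold change of phosphatase genes, double positive over single positive (horizontal axis), each with its 95% interval, grouped by family down the page. Green marks genes higher and red marks genes lower in double positive cells at an adjusted p under 0.05, and grey marks genes not past the threshold, most of whose intervals span 0.

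The receptor-type phosphatases are single-pass membrane proteins with catalytic domains inside the cell. PTPRE, the receptor-type phosphatase epsilon, acts on Src family kinases in mammals and is present in their haematopoietic cells. PTPRE ENSDARG00000015891 had 349, 304, 417 and 285 normalised counts in the double positive libraries and 93.8, 173, 57.6 and 79.2 in the single positive libraries. The lowest double positive library was above the highest single positive one. The means were 339 ± 58.7 in double positive and 101 ± 50.1 in single positive cells (SD, n = 4 each). On the log2 scale the fold change was 1.84 (95% interval 1.15 to 2.53, SE 0.33, 3.58-fold, limma adjusted p = 0.00226), and it was 1.35 within batch 1 and 2.33 within batch 2. Leaving out any single library kept the call, with adjusted p between 0.000729 and 0.0184, and it was lost without the mean-variance trend (adjusted p = 0.0911). The other identifier under this symbol, ENSDARG00000021151, was low and scattered, with 3.67, 0.104, 0.0459 and 13.6 in double positive and 13.8, 3.69, 0.609 and 6.79 in single positive libraries. How the authors' counting shared reads between the pair was not tested.

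The leukocyte receptor-type phosphatase ptprc (ENSDARG00000071437), known as CD45, is carried by nearly all white blood cells of mammals and activates Src family kinases by removing their inhibitory phosphate. It had 829, 1222, 1303 and 889 normalised counts in double positive and 963, 763, 1295 and 1036 in single positive libraries. The populations overlapped over almost the whole range. Its log2 fold change was 0.06 (SE 0.21, adjusted p = 0.920), and the 95% interval of -0.37 to 0.50 lies within 2-fold in either direction. ptprja, whose mammalian counterpart CD148 is found on many blood and vessel cells, had 109.6, 225, 168 and 238 in double positive and 91.5, 45.9, 216 and 48.2 in single positive libraries. The single positive library 4 reached the double positive range while the other 3 lay below it. The log2 fold change was 1.11 (SE 0.44, 95% interval 0.17 to 2.05, adjusted p = 0.173), and with median centring it was 1.39 (adjusted p = 0.0481). ptprja and ptprdb, described next, were singled out after their values were seen.

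ptprdb, a relative of the mammalian neuronal adhesion phosphatase PTPRD, had 1.01, 30.6, 11.4 and 3.65 in double positive and 34.1, 46.8, 31.4 and 37.2 in single positive libraries. All double positive libraries lay below all single positive ones, library 2 by less than 1 count. At a log2 fold change of -2.29 (SE 0.96) the difference did not pass the threshold (adjusted p = 0.194).

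The remaining receptor-type genes, PTPRA, ptprb, PTPRF, PTPRG, PTPRK and ptprsa, shared a pattern across libraries. In mammals PTPRA is widespread, ptprb is the endothelial phosphatase VE-PTP, and PTPRF, PTPRK and the relative of ptprsa act at cell contacts or in neurons. All 6 were under 1 in library double positive 1, with values of 0.165 to 0.398. PTPRF, for example, had 0.171, 5.27, 11.9 and 21.9 in double positive libraries and 22.3, 8.89, 0.231 and 0.809 in single positive libraries. Its log2 fold change was -2.48 in batch 1 and 3.52 in batch 2, so the pooled value of 0.52 (SE 1.34) averages opposite signs. ptprsa behaved alike, with -2.30 in batch 1, 3.94 in batch 2 and 0.82 over both, and so did PTPRA, with -2.10, 3.52 and 0.71. Together with PTPRE ENSDARG00000021151, 7 of the 11 receptor-type genes were below 0 in batch 1 and above 0 in batch 2. This order of signs was not particular to them. Over all 52 phosphatases 16 had it and 8 had the reverse, and DUSP4, for example, had -2.03 and 2.98. The share of all genes tested with this order was not counted, and 42.3% of all genes were under 1 in double positive 1. Only 3 of the 11 had the same sign in both batches. For all 52 phosphatases the share with the same sign was 53.8%, against 58.4% of all genes tested. Markers of vessel cells varied among the libraries too, with an endothelial and endocardial sum of 129, 261, 260 and 140 in double positive and 457, 745, 253 and 278 in single positive libraries. The part of these cells, of library double positive 1, and of any adjustment for batch before deposit in the receptor-type values was not tested.

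**Figure D2:**
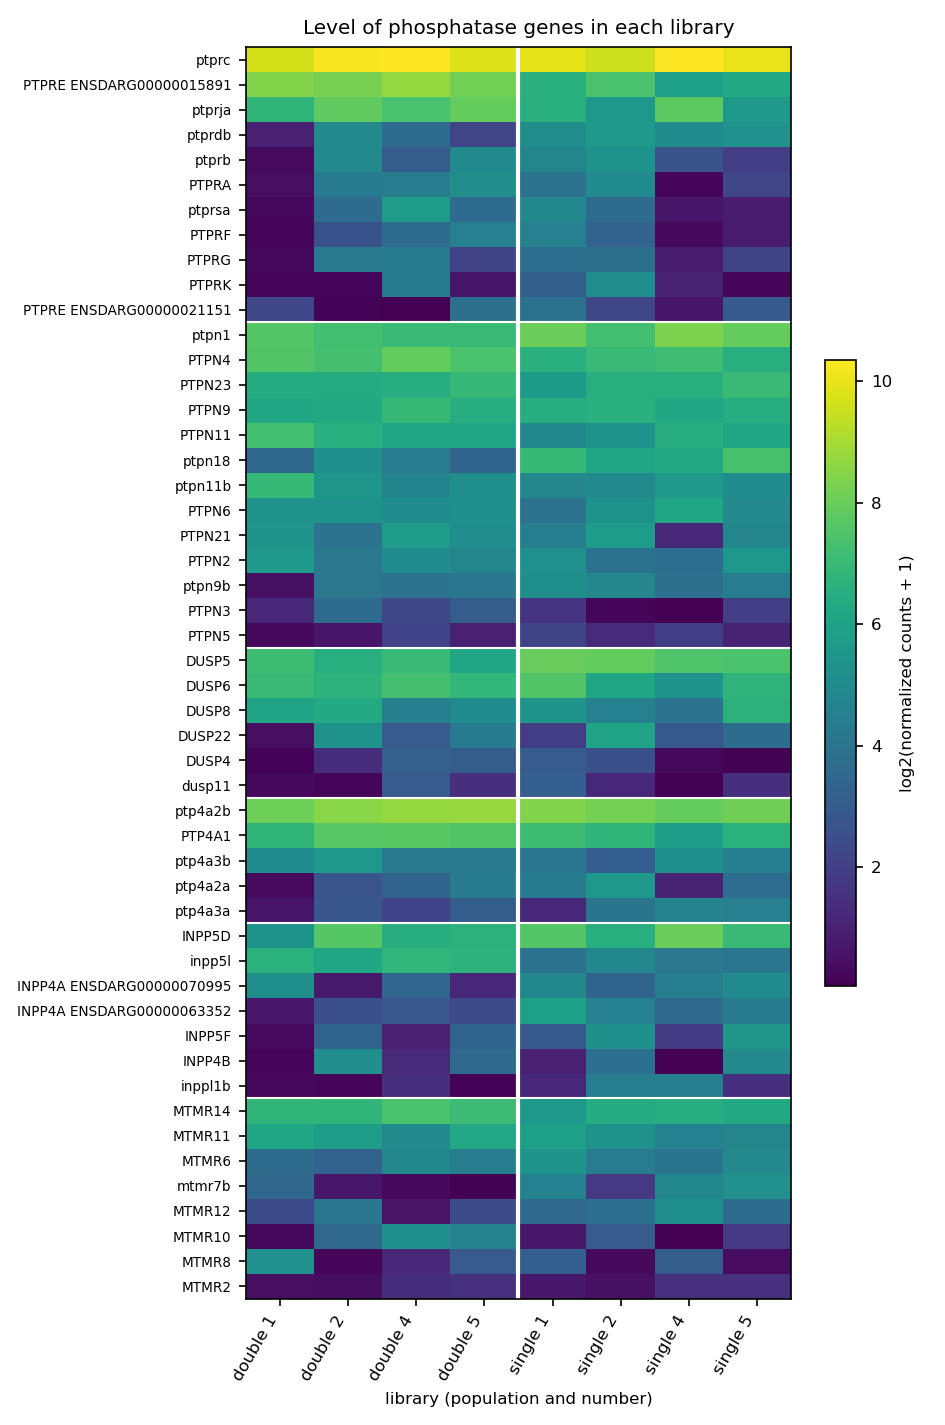
Level of phosphatase genes as log2(normalised counts + 1) (colour scale) in each library (columns, the 4 double positive libraries left of the white line and the 4 single positive ones right of it), grouped by family and ordered within a family by mean level. PTPRE ENSDARG00000015891 and inpp5l are brighter on the left, ptpn18 on the right, and the column of double positive 1 holds many of the darkest cells.

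Among the non-receptor tyrosine phosphatases, 1 of 13 was lower in double positive cells and none was higher, beside 6.69% of all genes tested past the threshold. Of the fold changes 9 lay above 0 and 4 below (median 0.15), and 6 of the 13 genes had the same sign in both batches. The smallest fold changes, such as 0.07 for PTPN9, lie within the range that depends on the scaling. The gene that fell was ptpn18 (ENSDARG00000006308), whose mammalian product belongs to the PEST-rich group of phosphatases and binds the cytoskeletal adaptor PSTPIP1 and the kinase CSK. ptpn18 had 10.6, 35.8, 20.5 and 9.33 normalised counts in double positive and 124, 70.04, 78.8 and 160.0 in single positive libraries. All double positive libraries lay well below all single positive ones. The means were 19.1 ± 12.2 in double positive and 108 ± 41.8 in single positive cells, a log2 fold change of -2.56 (SE 0.58, 95% interval -3.77 to -1.34, 5.88-fold lower, adjusted p = 0.0123). It was -2.19 in batch 1 and -2.93 in batch 2. The call was lost without double positive 5 (adjusted p = 0.0551), without single positive 1 (0.0510), without single positive 5 (0.0820) and without the mean-variance trend (0.0682), with the log2 fold change at -2.27 or below in each. Lymphocyte markers, lower in double positive cells as listed above, moved in the same direction, and their part in the ptpn18 result was not tested.

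ptpn1, the counterpart of mammalian PTP1B, which dephosphorylates the insulin receptor and JAK kinases at the endoplasmic reticulum, had 191, 148, 126 and 129 in double positive and 263, 154, 314 and 239.7 in single positive libraries. The populations overlapped through double positive 1 and single positive 2. Its log2 fold change of -0.68 (SE 0.31, 95% interval -1.33 to -0.03) had an adjusted p of 0.232. PTPN4, which joins a FERM and a PDZ domain and in mammals acts in T cells and neurons, had 188, 159.9, 238 and 171 in double positive and 95.3, 128, 144 and 89.8 in single positive libraries. The populations did not overlap, but the difference of 0.73 (SE 0.31, 95% interval 0.07 to 1.40) also missed the threshold (adjusted p = 0.204).

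The other 10 non-receptor genes include the main dampers of cytokine and immune receptor signals known from mammals. PTPN6, or SHP-1, the inhibitory phosphatase of blood cells, had 38.0, 38.3, 32.2 and 35.8 in double positive and 14.4, 38.5, 67.4 and 29.0 in single positive libraries. The double positive libraries lay close together within the wider single positive range, and the log2 fold change was 0.15 (95% interval -1.12 to 1.41). PTPN11, or SHP-2, which promotes signalling to ERK, had 150.4, 93.1, 69.0 and 69.7 in double positive and 27.8, 39.9, 86.7 and 69.9 in single positive libraries. Its log2 fold change of 0.82 (adjusted p = 0.377) was above 0 in batch 1 and -0.16 in batch 2, and its relative ptpn11b gave 1.35 in batch 1 and -0.39 in batch 2. PTPN2, a phosphatase of JAK1, had a log2 fold change of 0.27 (95% interval -1.23 to 1.76). PTPN9, which works at secretory vesicles, and PTPN23, an endosomal sorting protein, were measured more tightly, at 0.07 (95% interval -0.71 to 0.85) and 0.13 (95% interval -0.67 to 0.93). Of the remaining 4, PTPN3 and PTPN21 lay above 0 at 1.58 and 0.99, and PTPN5 and ptpn9b below it at -0.59 and -1.38, none with an adjusted p under 0.407.

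**Figure D3:**
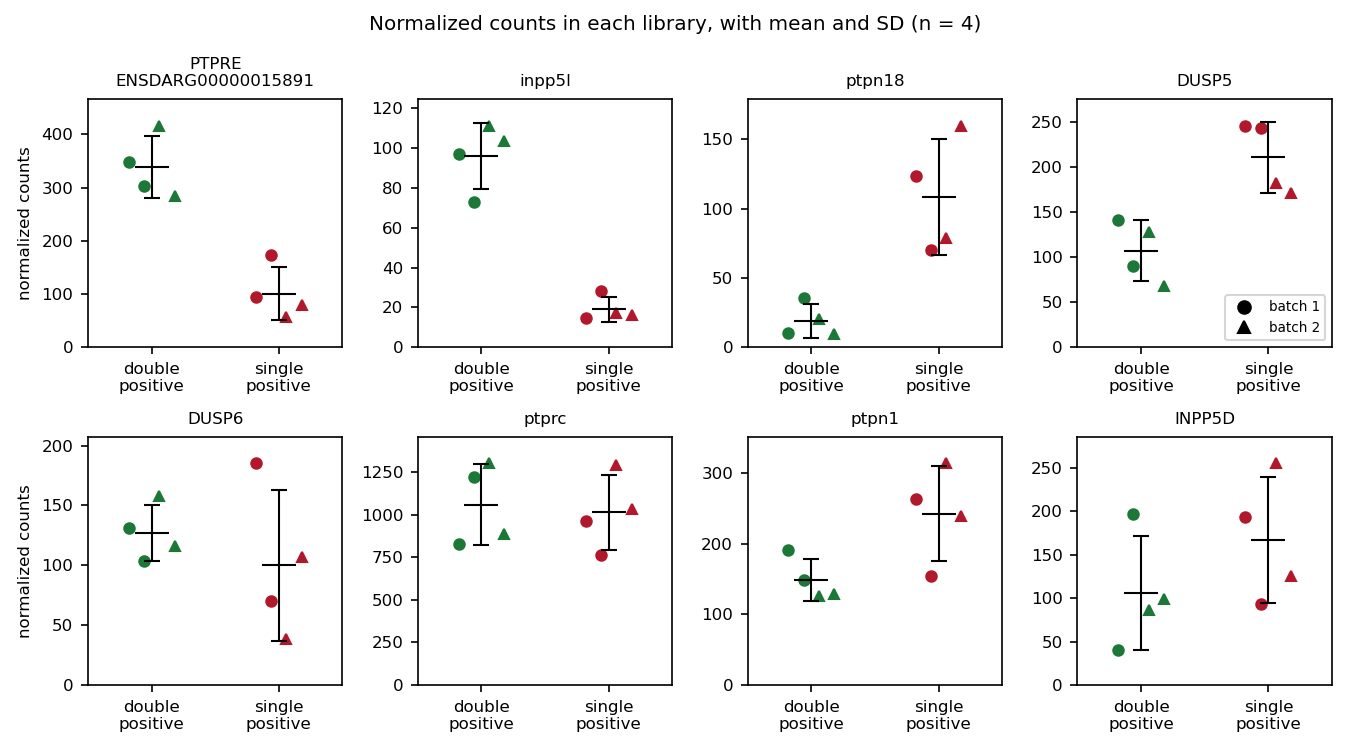
Normalised counts of 8 phosphatase genes in each library (vertical axis, linear from 0), double positive left and single positive right, with circles for batch 1, triangles for batch 2, and black lines for the mean and SD (n = 4). The populations are apart for PTPRE ENSDARG00000015891, inpp5l, ptpn18 and DUSP5 and overlap for DUSP6, ptprc, ptpn1 and INPP5D.

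None of the 6 dual-specificity phosphatases passed the threshold, beside 6.69% of all genes tested, and 3 fold changes lay above 0 and 3 below (median 0.03). DUSP5 (ENSDARG00000019307), the nuclear phosphatase of ERK and a target gene of ERK signalling in mammals, came closest. DUSP5 had 141, 89.5, 128 and 68.3 normalised counts in double positive and 246, 243, 182 and 171 in single positive libraries. All double positive libraries lay below all single positive ones. The means were 107 ± 33.7 in double positive and 211 ± 39.4 in single positive cells, a difference of -1.01 in log2 fold change (SE 0.32, 95% interval -1.69 to -0.34, adjusted p = 0.0728). Batch 1 gave -1.11 and batch 2 gave -0.91. It passed without double positive 1 (adjusted p = 0.0405), with a stricter filter on low values (0.0447) and after quantile normalisation (0.0275), and with median centring it was -0.73 (0.397). Without the mean-variance trend the limma adjusted p was 0.308. Leaving out any other library did not bring DUSP5 past the threshold, with adjusted p up to 0.227.

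DUSP6, the cytoplasmic phosphatase of ERK, had 131, 103, 158 and 116 in double positive and 185, 70.1, 38.7 and 107 in single positive libraries. The double positive libraries fell within the single positive range, and the log2 fold change was 0.55 (95% interval -0.37 to 1.46, adjusted p = 0.545). DUSP8, a phosphatase of JNK and p38, gave 0.32 (95% interval -1.06 to 1.71). DUSP4, a nuclear MAP kinase phosphatase, DUSP22 and the RNA phosphatase dusp11 each had values under 1 in at least 1 library, opposite signs in the batches, and 95% intervals that reach beyond 1 in both directions. In DUSP4, for example, the log2 fold change was -2.03 in batch 1 and 2.98 in batch 2.

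The ptp4a genes encode small membrane-bound phosphatases, called PRL in mammals, that bind the CNNM family of magnesium transport proteins. None of the 5 passed the threshold, beside 6.69% of all genes tested (median log2 fold change of the 5, 0.37). PTP4A1 had 108, 206, 206 and 188 normalised counts in double positive and 142, 110.3, 54.9 and 97.9 in single positive libraries. Double positive 1 lay inside the single positive range and the other 3 above it. The log2 fold change was 0.83 (SE 0.37, 95% interval 0.05 to 1.61, limma adjusted p = 0.223), at 0.25 in batch 1 and 1.41 in batch 2. Without double positive 1 it was 1.13 (adjusted p = 0.0486). Leaving out any other library did not bring PTP4A1 past the threshold, with adjusted p up to 0.467. ptp4a2b had 269, 369.8, 418 and 428 in double positive and 335, 291, 237 and 278 in single positive libraries. The same double positive library was again the lowest of its population, and the log2 fold change was 0.37 (95% interval -0.16 to 0.89). The low genes ptp4a2a, ptp4a3a and ptp4a3b gave -0.97, -1.43 and 0.51, with adjusted p of 0.567 or more.

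Among the inositol polyphosphate phosphatases, 1 of 7 was higher and none was lower in double positive cells, beside 6.69% of all genes tested past the threshold. inpp5l (ENSDARG00000053878), of the prefix that names 5-phosphatases of inositol polyphosphates, was the gene that rose. Of the other 6, 5 had fold changes below 0, which did not pass the threshold (median of the 7, -1.78). inpp5l had 97.2, 72.9, 111 and 103 normalised counts in double positive and 14.7, 28.0, 17.2 and 15.9 in single positive libraries. Each double positive library was above each single positive one by more than 2-fold. The means were 96.2 ± 16.6 in double positive and 19.0 ± 6.14 in single positive cells, a log2 fold change of 2.31 (SE 0.51, 95% interval 1.23 to 3.39, 4.96-fold, adjusted p = 0.0110). Batch 1 gave 2.00 and batch 2 gave 2.62. The call was lost without double positive 4 (adjusted p = 0.0737) or double positive 5 (0.0722), where the log2 fold change was 2.23 and 2.27. On the macrophage list 14 of 22 identifiers were also higher in double positive cells, and 1, IRF8, was lower. The neutrophil list had 5 identifiers for its 12 symbols, and mpx and lyz were not among them. Of these 5 neutrophil markers 2, NCF1 and CSF3R, were higher and none lower. Their sums were 1199 to 2067 in double positive against 656 to 826 in single positive libraries, without overlap. On the fibroblast and epicardial list 4 of 12 identifiers were higher too, and 1 was lower. The higher ones include wt1b, whose promoter drove the reporter used in the sort. The part of any of these cell types in the inpp5l and PTPRE results was not tested.

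INPP5D, or SHIP1, the 5-phosphatase that restrains PI3 kinase signalling in blood cells of mammals, had 40.8, 197, 86.8 and 99.4 in double positive and 193, 92.8, 255 and 125 in single positive libraries. The populations overlapped, and the log2 fold change was -0.75 (SE 0.45, 95% interval -1.71 to 0.20, adjusted p = 0.402). inppl1b, a relative of SHIP2, had 0.227, 0.181, 1.78 and 0.0982 in double positive and 1.28, 21.2, 21.0 and 1.67 in single positive libraries. Single positive 2 and 4 stood high and the other 6 libraries were near the floor, which gave -2.35 in log2 fold change (SE 1.02, adjusted p = 0.210). INPP4A removes the 4-phosphate of phosphatidylinositol 3,4-bisphosphate. INPP4A ENSDARG00000063352 had 0.641, 4.88, 6.09 and 4.12 in double positive and 58.7, 23.0, 11.1 and 19.0 in single positive libraries. The populations did not overlap, but its value of -2.49 (SE 1.10, 95% interval -4.81 to -0.17) missed the threshold (adjusted p = 0.221). INPP4A ENSDARG00000070995 gave -1.78, and its double positive library 1, at 35.6, was the highest of all 8. INPP5F, a phosphatase of phosphoinositides on endosomes, gave -1.84 and INPP4B 0.11, both with 95% intervals wider than 2 on either side of the estimate.

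Myotubularins remove the 3-phosphate from lipids of endosomes and autophagosomes, and some members are inactive partners of active ones. None of the 8 passed the threshold, beside 6.69% of all genes tested, with 4 fold changes above 0 and 4 below (median 0.27). MTMR14, an active member that limits autophagy in mammals, had 109, 110.3, 173 and 138 normalised counts in double positive and 45.1, 85.8, 86.8 and 77.7 in single positive libraries. All double positive libraries lay above all single positive ones. In log2 fold change the difference was 0.86 (SE 0.36, 95% interval 0.10 to 1.61, adjusted p = 0.194), at 0.81 in batch 1 and 0.90 in batch 2. MTMR11, an inactive member, had 68.2, 54.3, 29.3 and 76.0 in double positive and 57.2, 38.0, 22.6 and 25.9 in single positive libraries. The populations overlapped, and the log2 fold change was 0.66 (95% interval -0.45 to 1.77).

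mtmr7b, singled out after its values were seen, had 9.89, 0.645, 0.231 and 0.0760 in double positive and 22.5, 2.36, 27.6 and 36.8 in single positive libraries. Double positive 1 was above the other 3 of its population and above single positive 2. The pooled difference was -2.95 in log2 fold change (SE 1.27, limma adjusted p = 0.207). It was -1.07 in batch 1 (adjusted p = 0.814) and -4.84 in batch 2 (0.0406). Without double positive 1 it was -3.88 (adjusted p = 0.0475). Leaving out any other library did not bring it past the threshold, with adjusted p up to 0.438. The inactive members MTMR10 and MTMR12 gave 2.06 (95% interval -0.63 to 4.75) and -1.70 (95% interval -4.12 to 0.73). MTMR2, MTMR6 and MTMR8 gave -0.11, -0.63 and 0.71, with adjusted p of 0.726 or more.

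The SE was larger for phosphatases of low level in the fit used. The 17 genes with a mean of at least 50 normalised counts over the 8 libraries had an SE of the log2 fold change between 0.21 and 0.58 (median 0.37), and none had a value under 1. The 35 genes below that level had an SE between 0.53 and 1.42 (median 1.10), and 26 of them had a value under 1 in at least 1 library. The relation is partly built in, since the test fits the variance as a function of level, and without that trend the median SE was 0.44 for the 17 and 0.99 for the 35. All 3 calls fell among the 17 higher genes, a share read against 17.9% of all tested genes at that level, and none fell among the 35 lower ones, against 2.83%. In the scaling used here, the 95% interval stayed within 2-fold either way for only 4 of the 52, namely ptprc, ptp4a2b, PTPN23 and PTPN9. An interval within 2-fold does not make a gene equal in the populations. Median centring moved the median of all genes from -0.16 to 0.12, and such a shift moves these intervals too. None of the genes without a call can therefore be taken as equal. An unadjusted p under 0.05 was reached by 13 of the 52, or 25%, against 19.1% of all genes tested.

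**Figure D4:**
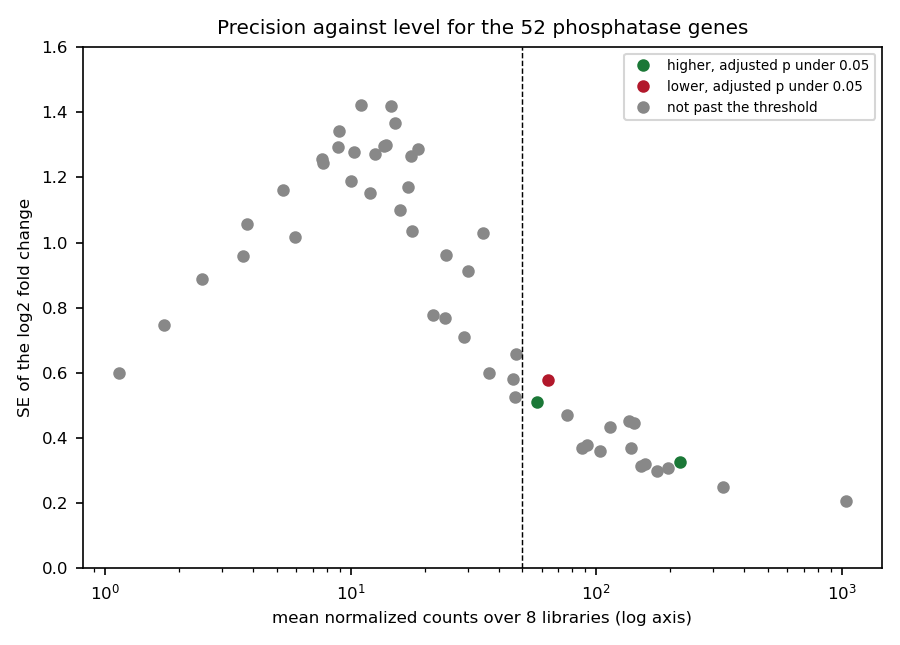
SE of the log2 fold change (vertical axis) against the mean normalised count over 8 libraries (horizontal log axis) for the 52 phosphatase genes, with green for higher, red for lower and grey for genes not past the threshold. The dashed line marks a mean of 50, right of which lie 17 genes with SE up to 0.58 and all 3 calls.

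The pathways that these enzymes act on were described by 4 lists. The MAP kinase cascade list, which holds ERK, JNK and p38 genes, the substrates of MAP kinase phosphatases, and the activators and effectors around them, had 37 genes tested and a median log2 fold change of -0.52. None passed the limma threshold, and 5 of the 37 had an unadjusted p under 0.05, against 19.1% of all genes tested. The summed level was 1549 to 1745 in double positive and 1893 to 1992 in single positive libraries. The sum weighs high genes most. MAPKAPK2, the highest of the list, averaged 411 ± 64.5 in double positive and 590 ± 121 in single positive cells (limma adjusted p = 0.231). The lowest adjusted p belonged to MAP3K3, a kinase that feeds ERK5 and other MAP kinases, singled out after its values were seen. MAP3K3 had 0.429, 4.76, 6.04 and 11.5 in double positive and 97.4, 61.0, 21.4 and 38.3 in single positive libraries. The populations were apart by -3.21 in log2 fold change (SE 0.97, adjusted p = 0.0574). The ERK gene MAPK3, a direct substrate of DUSP5 and DUSP6, averaged 59.9 ± 45.2 in double positive and 32.5 ± 25.9 in single positive cells, with an adjusted p of 0.494.

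Of 27 tested genes on the tyrosine kinase and STAT list, 2 were higher and 1 lower (median -0.07). YES1, a kinase of the Src family, had 170.5, 185, 167 and 228 in double positive and 29.0, 50.6, 21.0 and 33.7 in single positive libraries. The lowest double positive library was far above the highest single positive one, and the log2 fold change was 2.50 (SE 0.40, adjusted p = 0.00116), kept when any 1 library was left out (adjusted p up to 0.0150). It was the only 1 of 8 tested Src family genes past the threshold. JAK1, a cytokine receptor kinase and a substrate of PTPN2 in mammals, had 769, 847, 1095 and 1224 in double positive and 593, 552, 653 and 469 in single positive libraries. The populations did not overlap, but its difference of 0.78 in log2 fold change (SE 0.20, adjusted p = 0.0297) lost its call when any 1 of 6 libraries was left out (double positive 2, 4 or 5 or single positive 2, 4 or 5), with adjusted p up to 0.123. STAT4, a transcription factor of lymphocytes, had 8.21, 1.27, 12.3 and 3.98 in double positive and 45.5, 79.5, 52.3 and 44.8 in single positive libraries. It fell by 3.17 on the log2 scale (adjusted p = 0.0339), a call lost without double positive 4 or 5 or any of the single positive libraries, with adjusted p up to 0.158. Lymphocyte markers moved in the same direction as STAT4, and their part in it was not tested.

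Of 32 tested genes on the PI3 kinase and phosphoinositide list, 4 were higher and none lower (median -0.04). All 4 are lipid kinases. PI4K2A, which makes phosphatidylinositol 4-phosphate on Golgi and endosomes, had 422, 238, 292 and 402 in double positive and 145, 157, 102 and 92.3 in single positive libraries (log2 fold change 1.44, adjusted p = 0.00737, and 0.0536 without double positive 5). PIKFYVE, which acts on the same lipid as the myotubularins, had 320.1, 186, 281 and 451 in double positive and 162, 118, 91.6 and 89.5 in single positive libraries (1.39, adjusted p = 0.0169). Every double positive library was above every single positive one for both genes. PIP4K2A gave 1.54 (adjusted p = 0.0300) and PIK3CB, a catalytic subunit of PI3 kinase, gave 1.49 (adjusted p = 0.0431). The calls of PIKFYVE, PIP4K2A and PIK3CB were lost without double positive 4 or 5 or single positive 4 or 5, PIP4K2A also without single positive 2 and PIK3CB without single positive 1, with adjusted p up to 0.112, 0.162 and 0.218.

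Of 29 tested genes on a list of other damping genes, 2 were higher and none lower (median -0.13). TNIP1, an inhibitor of NF-kappaB signalling that works with A20, had 355, 669, 694 and 799 in double positive and 223, 167, 186 and 185 in single positive libraries. Double positive 1 was the lowest of its population and still above every single positive library, and the log2 fold change was 1.67 (SE 0.27, adjusted p = 0.00115), kept when any 1 library was left out. CBL, a ubiquitin ligase that removes activated tyrosine kinase receptors, had 217, 286, 335 and 232 in double positive and 96.9, 118, 84.3 and 111 in single positive libraries. The populations were apart, by 1.36 in log2 fold change (SE 0.30, adjusted p = 0.0103), and the call was lost without double positive 4 (0.0651). The shares past the threshold on the 4 lists, 0, 11.1, 12.5 and 6.9%, stand beside 5.77% of the phosphatases and 6.69% of all genes tested. The higher genes of these lists were YES1, JAK1, the 4 lipid kinases, TNIP1 and CBL. Also higher were 14 of 22 macrophage, 2 of 5 neutrophil and 4 of 12 fibroblast and epicardial identifiers. The last include wt1b of the sort reporter. The macrophage list had 1 lower, IRF8, the fibroblast and epicardial list had 1 lower, and the neutrophil list had none. The part of any of these cell types in the results of the higher genes was not tested.

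**Figure D5:**
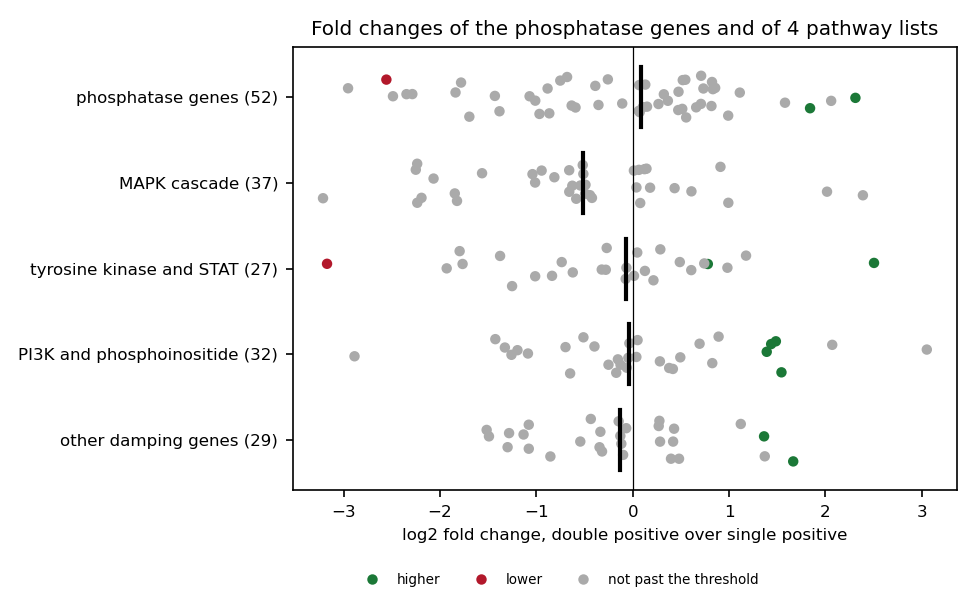
Log2 fold change, double positive over single positive (horizontal axis), of the 52 phosphatase genes and of the tested genes of 4 pathway lists (each point 1 gene, the number of genes in brackets), with a black line at each median. Green points are higher and red points lower in double positive cells at an adjusted p under 0.05, and the MAP kinase list has the lowest median, -0.52, with no called gene.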

How the data were processed

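RNA from 4 double positive and 4 single positive pools of sorted heart cells was sequenced. The submitters' processing notes name the zebrafish build Zv9 and the tools RSEM 1.2.3, cutadapt and CASAVA 1.8.2, without saying which step each served. The sources used here give neither how the values were normalised nor whether strand was used. Per gene, the authors deposited a signal, their normalised counts, which is not whole and never exactly 0. Whether they were adjusted for batch is not stated; deviations from population means correlated negatively between the populations within a batch and positively across batches, and what an earlier adjustment would do to the batch term or to values within a batch was not tested. The depth in reads is therefore unknown and no counting interval is given.

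Symbols were taken from the table supplied for the identifiers and were found for 8512 of them (81.2%). Values were tested as log2(value + 1) with limma 3.58.1 in R 4.3.3, with batch as a covariate and a mean-variance trend. The fit took all 8 libraries and had 5 residual degrees of freedom. Genes with a value of at least 1, after each library was scaled to a total of 1000000, in at least 4 of the 8 libraries were tested, which kept 10127 and left out 352 of 10479. All 52 phosphatases passed. Of these, 2 are in every count over the 52 and are not otherwise reported here. Tests were two-sided, adjusted by Benjamini-Hochberg over all tested genes, with a threshold of 0.05. Each fold change is double positive over single positive after adding 1 to both values, so the change of a low gene is understated. The 4 libraries of each population were taken as biological replicates. Whether double and single positive libraries of equal number came from the same hearts is not stated. No scaling by length is stated. Rankings of genes by level, and the split at a mean of 50, therefore order normalised counts and not numbers of transcripts.

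Described by name were every phosphatase past the threshold, the 2 highest of each prefix, the smallest p of a prefix without a call, those with adjusted p under 0.1, identifiers sharing a symbol, and the 3 called genes with the smallest p of each pathway list. Others were named after their values were seen. The members and lists were chosen with earlier results of these data known. Alternatives were a pseudocount of 0.1 or 5, no filter or a filter of 10, median centring, quantile normalisation, no trend, no batch covariate, a replicate block, each batch alone, and leaving out each library.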

Additional observations from a re-analysis of the deposited data

Results flagged for a closer look

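Within each population the highest or lowest of the 4 libraries was compared with the spread of the other 3 on the log2 scale for each of the 52 phosphatases. That made 104 groups, of which 7 held a library far from the others, and chance flags about 1 in 20 groups. PTP4A1 was lowest in double positive 1, at 108, with the other 3 at 188 to 206. ptpn9b was lowest in the same library, at 0.441, with the others at 14.5 to 16.3. inppl1b was highest in double positive 4, at 1.78, against 0.0982 to 0.227, and PTPRK was highest there too, at 18.3, against 0.132 to 0.549. PTPN23 was highest in double positive 5, at 119, with the others at 83.5 to 86.6. MTMR14 was lowest in single positive 1, at 45.1, with the others at 77.7 to 86.8, and MTMR12 was highest in single positive 4, at 35.3, with the others at 10.9 to 13.0.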

How the results depend on the processing

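With 2 phosphatases higher and 1 lower, and 9 pathway genes past the threshold, the counts moved under some alternatives, and the cause was not tested. Without the mean-variance trend, 1 phosphatase was higher and 0 lower, with 5 lower at an unadjusted p under 0.05, and 2 pathway genes passed; of all genes, 124 were higher and 195 lower, against 393 and 285. In batch 1 alone, limma called 0 phosphatases higher, 0 lower and 0 pathway genes, with 3, 3 and 13 at an unadjusted p under 0.05, and it called 0 of all 10127 genes, so these counts say nothing particular to phosphatases. The filter of 10, which left 40 phosphatases tested, quantile normalisation and batch 2 alone each gave 2 lower. Leaving out 1 library at a time gave 1 to 3 higher (1 without double positive 4 or 5), 0 to 3 lower (3 without double positive 1, 0 without double positive 5, single positive 1 or single positive 5) and 3 to 14 pathway genes (14 without double positive 1, 3 without double positive 4 or 5, 4 without single positive 4 or 5), while of all genes 169 to 497 were higher and 101 to 308 lower. Where none was lower, 2 to 3 phosphatases were lower at an unadjusted p under 0.05. With median centring ptprja was also higher. With the replicate number as a block, the same 3 phosphatases were called (adjusted p of 0.00703 for PTPRE ENSDARG00000015891, 0.0282 for ptpn18 and 0.0260 for inpp5l) and 5 pathway genes. The labels do not pair the numbers, and deviations from population means correlated at -0.292 to -0.112 between same-numbered libraries, at -0.255 to -0.105 between other libraries of 1 batch and at 0.094 to 0.283 across batches. With the batch means also removed, same-numbered libraries correlated at 0.000 to 0.015, and other libraries of the same batch at these values with the sign reversed. The libraries of a population within a batch then mirror each other around their mean. Values for like and unlike numbers are therefore not independent and decide little about pairing. Over the 52 phosphatases 24 had opposite signs in the batches; of those refitted by name, the sign differed from the pooled one in batch 2 alone for ptprc (-0.11) and PTPRE ENSDARG00000021151 (0.14). Leaving out 1 library gave -0.082 to 0.21 for ptprc. A pseudocount of 0.1 or 5, no filter and no batch covariate moved none of the 3 counts by over 1.5 times. The depth in reads is unknown, so no limit by depth is given.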
